A study of Mus musculus with 28 samples.

Results

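Glycine receptors and transporters were followed through the mouse brain at 3 weeks of age as a set of 8 genes. The set holds the 4 alpha subunits of the glycine receptor (Glra1, Glra2, Glra3 and Glra4), its beta subunit (Glrb), both glycine transporters (Slc6a5 and Slc6a9) and gephyrin (Gphn). Members were found by matching the names of the array probes to these symbols, and 7 of the 8 genes had a probe, out of 20660 symbols with a probe in all. No probe name matched Slc6a5, which is not analysed here. The 7 genes had 9 probes, with 2 each for Glra1 and Slc6a9, and the probe with the highest mean level was used for each gene. Of the 7 genes, 6 met the condition for testing, a signal well above background somewhere in every series, and Glra4 did not.

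The arrays came from Transcriptome Tomography, a method that slices a frozen brain in 1 direction and pools neighbouring slices as a fraction. The mice were males of strain C57BL/6J, the labels name no treatment and no genetic change, and 1 mouse was used for each plane: 12 coronal, 6 horizontal and 10 sagittal fractions, with 1 array each and 28 arrays in all. No position was measured again, and mouse cannot be told apart from plane, so every error below is the scatter of fractions around a line, a curve or a group mean, which also holds real anatomy, and p-values describe these 3 brains. By its label, coronal fraction 12 was pooled with the one that followed, so it may be wider than the others.

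Glycine is a fast inhibitory transmitter, above all in the brainstem and the spinal cord. Its receptor is a chloride channel built of alpha subunits, which bind the agonist, and the beta subunit, which ties the channel to gephyrin, the scaffold under inhibitory synapses. Slc6a5 (GlyT2) is the transporter of neurons that release glycine, and Slc6a9 (GlyT1) is found mainly in astrocytes and clears glycine around synapses. Alpha 2 is known as the subunit of the immature brain, and alpha 1 as the main subunit of the adult brainstem and spinal cord.

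Levels are log2 processed signals from which the 75th percentile of the same array was subtracted, so 0 is the 75th percentile. The strength of hybridisation differs between probes, so levels are compared across fractions for 1 probe and never between probes. Marker genes gave the direction of each series. The mean level of 8 hindbrain genes was highest in coronal fraction 1 and that of 5 olfactory bulb genes in coronal fraction 12, so coronal fraction 1 is the caudal end. The mean of 5 cerebral cortex genes was highest in horizontal fraction 1 and that of 5 hypothalamus genes in horizontal fraction 6, so horizontal fractions run from dorsal to ventral. All 4 neuron markers were well above background on every array. The 75th percentile of the signal lay between 135 (sagittal fraction 1) and 574, and 24822 to 34240 of the 55681 probes were well above background on an array. The arrays lay on 4 slides: coronal fractions 1 and 2 were on slide 1 with all horizontal fractions, coronal fractions 3 to 10 on slide 2, coronal fractions 11 and 12 on slide 3 with sagittal fractions 5 to 10, and sagittal fractions 1 to 4 on slide 4.

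Promoter sequences are shown for the 2 members with the highest correlation over all fractions (Glrb and Gphn, below) and for the 2 alpha subunits with a promoter entry and a level well above background on 12 or more arrays (Glra2 and Glra3). They are RefSeq sequences of assembly GRCm38.p6, from 250 bases before to 50 bases after a listed start, 5′ to 3′ on the gene's strand, and CG dinucleotides are in capitals.
Glrb (GRCm38.p6, chr3:80913611-80913910, minus strand): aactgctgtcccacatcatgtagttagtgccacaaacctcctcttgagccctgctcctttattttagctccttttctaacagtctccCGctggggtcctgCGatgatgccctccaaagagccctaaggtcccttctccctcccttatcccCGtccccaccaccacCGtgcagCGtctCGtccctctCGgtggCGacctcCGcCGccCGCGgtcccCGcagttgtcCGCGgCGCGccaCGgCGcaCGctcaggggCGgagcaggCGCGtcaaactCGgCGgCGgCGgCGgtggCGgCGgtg
Gphn (GRCm38.p6, chr12:78226405-78226704, plus strand): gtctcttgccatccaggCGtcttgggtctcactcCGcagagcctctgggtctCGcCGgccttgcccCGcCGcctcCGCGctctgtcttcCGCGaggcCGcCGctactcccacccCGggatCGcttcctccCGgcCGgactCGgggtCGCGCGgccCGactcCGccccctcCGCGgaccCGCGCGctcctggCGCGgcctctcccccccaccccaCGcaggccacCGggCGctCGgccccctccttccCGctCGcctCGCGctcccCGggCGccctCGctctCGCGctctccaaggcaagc
Glra2 (GRCm38.p6, chrX:165327344-165327643, minus strand): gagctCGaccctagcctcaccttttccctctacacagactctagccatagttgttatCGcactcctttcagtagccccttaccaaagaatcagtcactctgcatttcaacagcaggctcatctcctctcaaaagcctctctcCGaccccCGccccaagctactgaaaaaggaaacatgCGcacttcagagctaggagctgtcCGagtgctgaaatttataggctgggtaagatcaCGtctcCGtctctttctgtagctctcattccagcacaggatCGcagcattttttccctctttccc
Glra3 (GRCm38.p6, chr8:55940168-55940467, plus strand): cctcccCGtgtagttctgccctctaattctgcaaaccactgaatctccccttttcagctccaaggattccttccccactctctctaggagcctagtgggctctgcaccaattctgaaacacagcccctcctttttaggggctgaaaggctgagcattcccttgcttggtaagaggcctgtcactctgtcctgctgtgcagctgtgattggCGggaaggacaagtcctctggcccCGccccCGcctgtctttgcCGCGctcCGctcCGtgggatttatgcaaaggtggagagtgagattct
The Gphn sequence held 42 CG dinucleotides, and 97.0% of 32851 promoters of the same length held fewer. Glrb held 30, with 88.3% of promoters below it. Glra2 held 9 and Glra3 held 8, near the median of 7. TATAAA, searched on both strands, was found in the Glra2 sequence, and 13.6% of all promoters held it. TATAAA was in 1 of the 10 entries of 7 members. These are not the 7 measured genes, as they include Slc6a5 and leave out Glra1, which had no entry. These are matches of letters in a window and nothing more was measured at these sites.

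**Figure D1:**
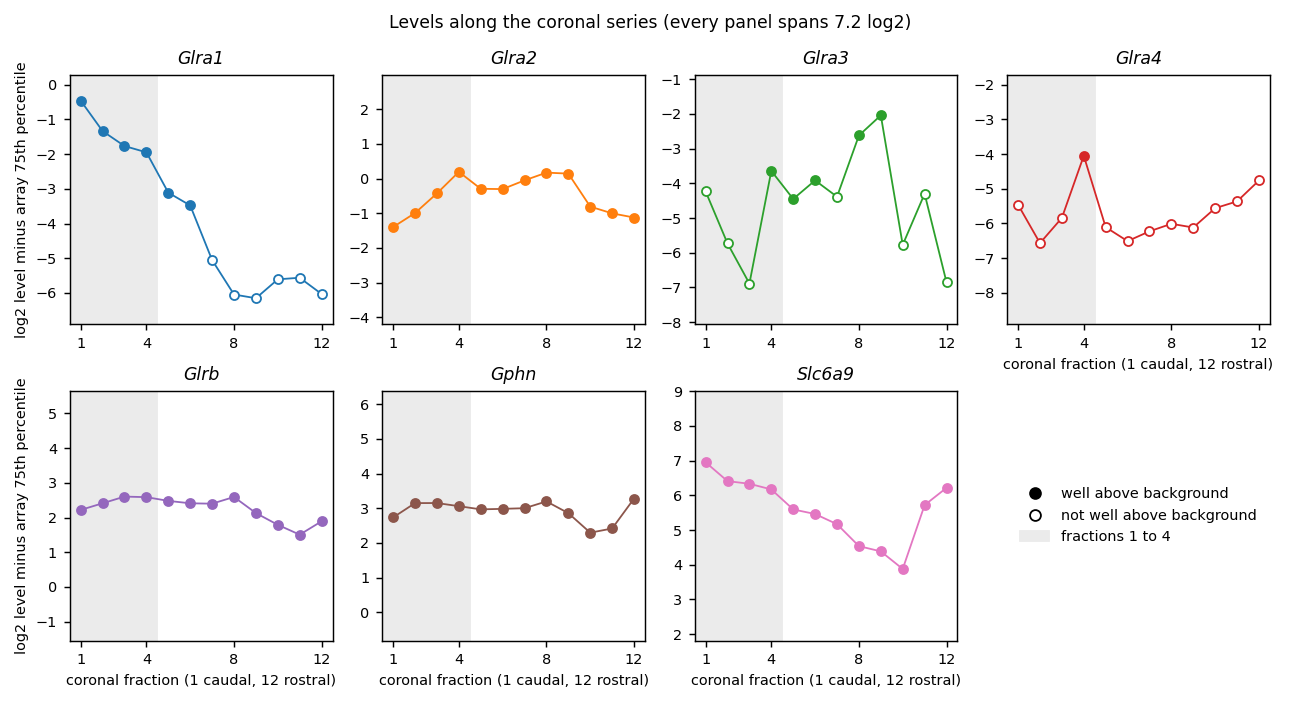
Log2 level of the 7 measured members (vertical axis, log2 minus the array's 75th percentile) in the 12 coronal fractions, with 1 array per point; open points were not well above background, grey marks fractions 1 to 4 and every panel spans the same number of log2 units. Glra1 falls from -0.46 in fraction 1 to -3.48 in fraction 6 and is not well above background beyond it, Slc6a9 falls from 6.95 to 3.88 in fraction 10 and returns to 6.22 in fraction 12, and Glrb and Gphn stay within 2.14-fold and 1.98-fold.

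The first question was how steeply each gene rose towards the caudal end. It was asked of the coronal series, the only one that runs along this axis, by a line through the 12 fractions and by a contrast of fractions 1 to 4, taken as those with hindbrain and cerebellum, with fractions 5 to 12. Of the 6 members tested, only Glra1 had a caudal gradient past the threshold, and Glra1 and Slc6a9 were higher in the caudal fractions in the contrast. No member was lower caudally in either test, also at an unadjusted p under 0.05. Over all 32364 probes tested, 6.73% passed as higher and 5.83% as lower in the gradient, and 6.11% as higher and 5.34% as lower in the contrast (limma, Benjamini-Hochberg adjusted p under 0.05). With 6 members, 1 of 6 and 2 of 6 are small counts to set against these shares. The median gradient of the 6 members was 0.046 log2 per fraction, and that of all probes was -0.0023. Their median contrast was 0.23 against -0.0065.

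Glra1, the alpha 1 subunit, had the steepest gradient. Its level was -0.46 in coronal fraction 1, -1.34 in fraction 2, -1.77 in fraction 3 and -1.95 in fraction 4. It was -3.11 in fraction 5 and -3.48 in fraction 6, and was not well above background in the remaining 6 fractions. The 4 caudal fractions did not overlap with the other 8, whose highest value was that of fraction 5. Of all probes tested, 4.68% had fractions 1 to 4 all above fractions 5 to 12, and Glra1 was the 1 member that did. The level in fraction 1 was at least 12.2-fold above that in fraction 9, a lower bound because the probe was not well above background there. The gradient was 0.55 log2 per fraction (SE 0.056, limma adjusted p = 0.000134). The mean was -1.38 ± 0.66 (SD, n = 4 fractions) in fractions 1 to 4 and -5.13 ± 1.19 (SD, n = 8) in fractions 5 to 12, a difference of 3.75 log2 (SE 0.59, limma adjusted p = 0.00244). In the second group 2 of 8 arrays measured the gene. With dim values raised to the lowest signal well above background on the same array, the difference was 2.42 log2 and the gradient 0.31 log2 per fraction, both past the threshold. With normexp background correction the difference was 1.49 and the gradient 0.19 log2 per fraction, also both past the threshold. The gradient also passed with the slide as a block (0.69, adjusted p = 0.00258) and in fractions 3 to 10 of slide 2 alone (0.69, adjusted p = 0.00784). The contrast did not, at 3.05 log2 with the slide as a block (adjusted p = 0.065) and 3.05 within slide 2 (adjusted p = 0.109). These 2 settings give 1 estimate. Each other slide held coronal fractions of 1 group only, so both settings compare fractions 3 and 4 with fractions 5 to 10.

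The second Glra1 probe gave 0.56 log2 per fraction and a contrast of 4.12. On the 13 arrays where both probes were well above background, the SD of their difference was 0.58 log2, so differences of this size between fractions rest on the choice of probe. The hindbrain markers also placed the series, and fractions 1 to 4 were taken as those with hindbrain and cerebellum. The levels and calls of both marker lists are therefore a description of the caudal fractions and test nothing. Over the coronal, horizontal and sagittal fractions, the correlation of Glra1 with the mean hindbrain level was 0.86, 0.93 and 0.93. With the mean cerebellum level it was 0.89, 0.0049 and 0.47. Of the 28 Glra1 levels 15 were not well above background, and no hindbrain marker was well above it in every fraction of any series. These correlations thus rest in large part on dim values. Log2 of the summed level of the 8 hindbrain markers was 0.57 to 4.84 in fractions 1 to 4 and -3.09 to -1.33 in fractions 5 to 12, where 5 of the 8 were not well above background in any fraction. All 8 hindbrain and all 6 cerebellum markers were higher in the contrast, where 6.11% of all probes were. The choice of fractions 1 to 4 made this outcome likely beforehand. With the slide as a block, 5 of the 8 hindbrain markers and 1 of the 6 cerebellum markers, Calb1 (limma adjusted p = 0.0834), did not pass. No conclusion is drawn from these calls. The summed log2 level of the 6 cerebellum markers was 7.51 to 9.44 in fractions 1 to 4 and 3.70 to 5.12 in fractions 5 to 12. Their part in the Glra1 result was not tested. In bulk fractions, fewer cells that express a gene and less RNA per cell cannot be told apart.

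Slc6a9, the glial glycine transporter, was also high caudally, but it did not follow a line. The level was 6.95, 6.41, 6.33 and 6.17 in coronal fractions 1 to 4. It declined fraction by fraction to 3.88 in fraction 10, and was 5.72 in fraction 11 and 6.22 in fraction 12, the olfactory bulb end. Fraction 12 therefore lay above fraction 4, and the groups overlapped. The range was 8.42-fold. The gradient was 0.15 log2 per fraction (SE 0.060, limma adjusted p = 0.116). It passed without fraction 12, at 0.23 (adjusted p = 0.0112), with the slide as a block, at 0.34 (adjusted p = 0.0025), and within fractions 3 to 10 of slide 2, at 0.35 (adjusted p = 0.0026). The contrast was 1.35 log2 (SE 0.38, limma adjusted p = 0.0411), from a mean of 6.47 ± 0.34 (SD, n = 4) in fractions 1 to 4 and 5.12 ± 0.79 (SD, n = 8) in fractions 5 to 12, or 2.54-fold. This call was lost in 7 of 14 alternatives, while the difference stayed between 1.18 and 1.60. Among the 7 were leaving out fraction 1 (1.18, adjusted p = 0.124) and the slide as a block (1.41, adjusted p = 0.0934). Fractions 3 to 10 alone, also among the 7, gave the same estimate as the slide block. The 2 Slc6a9 probes differed by a nearly constant amount over the 28 arrays (SD 0.052 log2). The second probe gave a contrast of 1.40 and no overlap, with 5.82 as the lowest caudal level against 5.73 in fraction 12.

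Markers of astrocytes, where Slc6a9 is known to be expressed, were measured beside it. Of the 6 astrocyte markers 1, the water channel gene Aqp4, was higher in the contrast (1.38 log2, adjusted p = 0.00233, and 1.28 with the slide as a block, adjusted p = 0.0267) and in the gradient (0.15 log2 per fraction, adjusted p = 0.0322), and log2 of the summed level of the 6 was 6.63 to 7.31 in fractions 1 to 4 and 6.44 to 6.77 in fractions 5 to 12. All 6 were well above background in every coronal fraction. Over the 12 coronal fractions, the Pearson correlation of Slc6a9 with the mean astrocyte level was 0.89. It was 0.12 over the 6 horizontal and 0.65 over the 10 sagittal fractions. Of the 5 myelin markers 1, Mbp, was higher in the contrast (1.57 log2, adjusted p = 0.0437), and 0.96 with the slide as a block, which did not pass. In the gradient all 5 were higher, at 0.11 to 0.27 log2 per fraction. Of all probes, 6.73% passed as higher in the gradient and 6.11% in the contrast. The correlation of Slc6a9 with the mean myelin level was 0.38 over the coronal, 0.96 over the horizontal and 0.84 over the sagittal fractions. The part of these cell types in the Slc6a9 result was not tested.

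Glrb, the beta subunit, was nearly even along the axis. In coronal fractions 1 to 8 it lay between 2.22 and 2.60, and it was 2.13, 1.79, 1.51 and 1.89 in fractions 9 to 12. The low values were thus at the rostral end. All 12 values fell within 2.14-fold. The gradient was 0.068 log2 per fraction (SE 0.024, limma adjusted p = 0.0797), and it passed without fraction 1, at 0.090 (adjusted p = 0.0363). The contrast was 0.31 log2 (SE 0.21, adjusted p = 0.362), with an interval from -0.14 to 0.75.

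Gphn, the scaffold gene, had the narrowest coronal range of the 6, at 1.98-fold. Its levels in fractions 1 to 4 were 2.74, 3.15, 3.15 and 3.06, and in fractions 5 to 12 they ran from 2.30 (fraction 10) to 3.28 (fraction 12), with a median of 2.98. Values of the first group lay inside the range of the second. The gradient was 0.024 log2 per fraction (SE 0.026, limma adjusted p = 0.599). It was 0.051 without fraction 12, 0.042 without fraction 1, 0.075 in fractions 3 to 10 alone and 0.058 with the slide as a block, none past the threshold. The contrast was 0.15 log2 (SE 0.19, adjusted p = 0.653), with an interval from -0.27 to 0.57, and 0.24 without fraction 1.

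Glra2, the alpha 2 subunit, was highest in the middle of the axis. Its level rose from -1.40 in coronal fraction 1 over -0.99 and -0.43 to 0.19 in fraction 4. It was between -0.30 and 0.17 in fractions 5 to 9 and fell from -0.81 to -1.12 over fractions 10 to 12. Both ends of the brain were thus lower than the middle, and the gradient along the whole axis was -0.0058 log2 per fraction (SE 0.045, limma adjusted p = 0.953) and changed sign with the slide as a block, in fractions 3 to 10 alone and without fraction 1. The contrast was -0.25 log2 (SE 0.32, adjusted p = 0.659). It rested on fraction 1, without which it was -5.7e-05, and on the border, as it was -0.60 (adjusted p = 0.251) for fractions 1 to 3 against the rest. The range over the 12 fractions was 3.01-fold, and all 12 were well above background.

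Glra3, the alpha 3 subunit, was dim, and was well above background in 5 of 12 coronal fractions. These were fraction 4 at -3.64, fraction 5 at -4.45, fraction 6 at -3.91, fraction 8 at -2.62 and fraction 9 at -2.04. The highest lay in the middle and rostral part of the brain, and fraction 9 was at least 5.97-fold above fraction 3. The gradient was -0.017 log2 per fraction (SE 0.12, limma adjusted p = 0.945), and the contrast was -0.83 log2 (SE 0.84, adjusted p = 0.557). Both rest on 7 of 12 values not well above background, and with these raised to the array floor they were -0.091 and -0.62. The gradient was -0.15 without fraction 12, -0.041 without fraction 1 and -0.25 in fractions 3 to 10 alone, and none of these passed. The interval of the contrast ran from -2.65 to 0.99, the widest of the 6.

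Glra4, the alpha 4 subunit, was well above background on 2 of 28 arrays, coronal fraction 4 (-4.05) and sagittal fraction 3 (-5.16). The coronal value was at least 1.38-fold above that of fraction 2. Values not well above background have no order, and Glra4 entered no test.

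**Figure D2:**
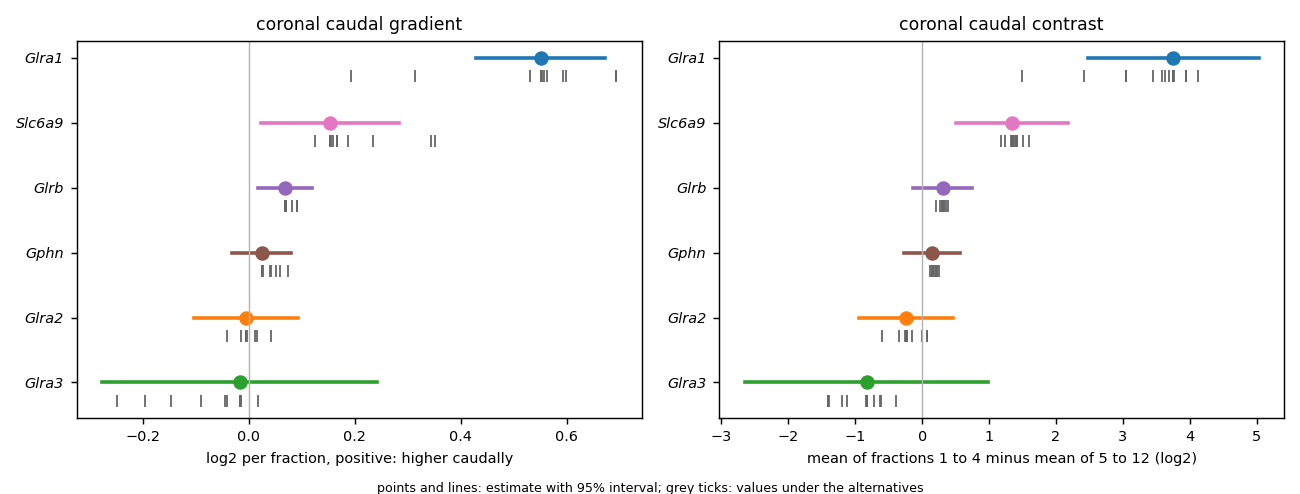
Coronal caudal gradient (left, log2 per fraction) and contrast of fractions 1 to 4 with fractions 5 to 12 (right, log2) of the 6 tested members; points and lines are estimates with 95% intervals and grey ticks are values under the alternative settings. Glra1 stands at 0.55 and 3.75, Slc6a9 follows at 0.15 and 1.35, and the contrast intervals of Glrb, Gphn, Glra2 and Glra3 span 0.

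In the order of their caudal gradients the genes were Glra1, Slc6a9, Glrb, Gphn, Glra2 and Glra3. Neighbours were compared by the slope of the difference between their levels over the 12 fractions, with its 95% interval. Glra1 exceeded Slc6a9 by 0.40 log2 per fraction (0.29 to 0.50), a difference that rests on 6 of 12 Glra1 values not well above background. It was 0.16 (0.010 to 0.31) with those values raised to the array floor and 0.026 (-0.091 to 0.14) with normexp background correction. Glrb exceeded Gphn by 0.044 (0.0037 to 0.084), but the interval included 0 without coronal fraction 12 (0.018, -0.0095 to 0.045), without fraction 1 (0.048) and in fractions 3 to 10 alone (0.016). The other 3 neighbour pairs had intervals that included 0: 0.086 (-0.085 to 0.26) for Slc6a9 and Glrb, 0.030 (-0.074 to 0.13) for Gphn and Glra2, and 0.012 (-0.23 to 0.26) for Glra2 and Glra3. The interval of Slc6a9 and Glrb excluded 0 without fraction 12 (0.17) and in fractions 3 to 10 alone (0.26). Of all 15 pairs, 7 excluded 0, and these were the 5 pairs with Glra1 and those of Glrb with Gphn and with Glra2. This count rested on the ends of the series: it was 11 of 15 without coronal fraction 12, 9 in fractions 3 to 10 alone, and 5, those with Glra1, without fraction 1. With dim values raised to the floor the 5 pairs with Glra1 still excluded 0, and with normexp 3 of the 5 did. Neighbouring fractions are not independent, so these intervals are a description.

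A curve was fitted as well, since several profiles were bent. In the coronal series 4 of 6 members varied with position: Glra1 (adjusted p = 5.66e-05), Slc6a9 (adjusted p = 0.00304), Glra2 (adjusted p = 0.0126) and Glrb (adjusted p = 0.0241, limma F-test of a spline curve). Of all probes, 33.7% passed this test. The fitted curve peaked in fraction 1 for Glra1 and Slc6a9, in fraction 5 for Glrb and in fraction 7 for Glra2. Glra3 (adjusted p = 0.112) and Gphn (adjusted p = 0.56) did not pass. Glra3 did with normexp (adjusted p = 0.012) and with dim values raised to the array floor (adjusted p = 0.0471). With the slide as a block the calls of Glra2 (adjusted p = 0.674) and Glrb (adjusted p = 0.493) were lost, and those of Glra1 and Slc6a9 held. Glrb was also lost with array median scaling (adjusted p = 0.0642).

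**Figure D3:**
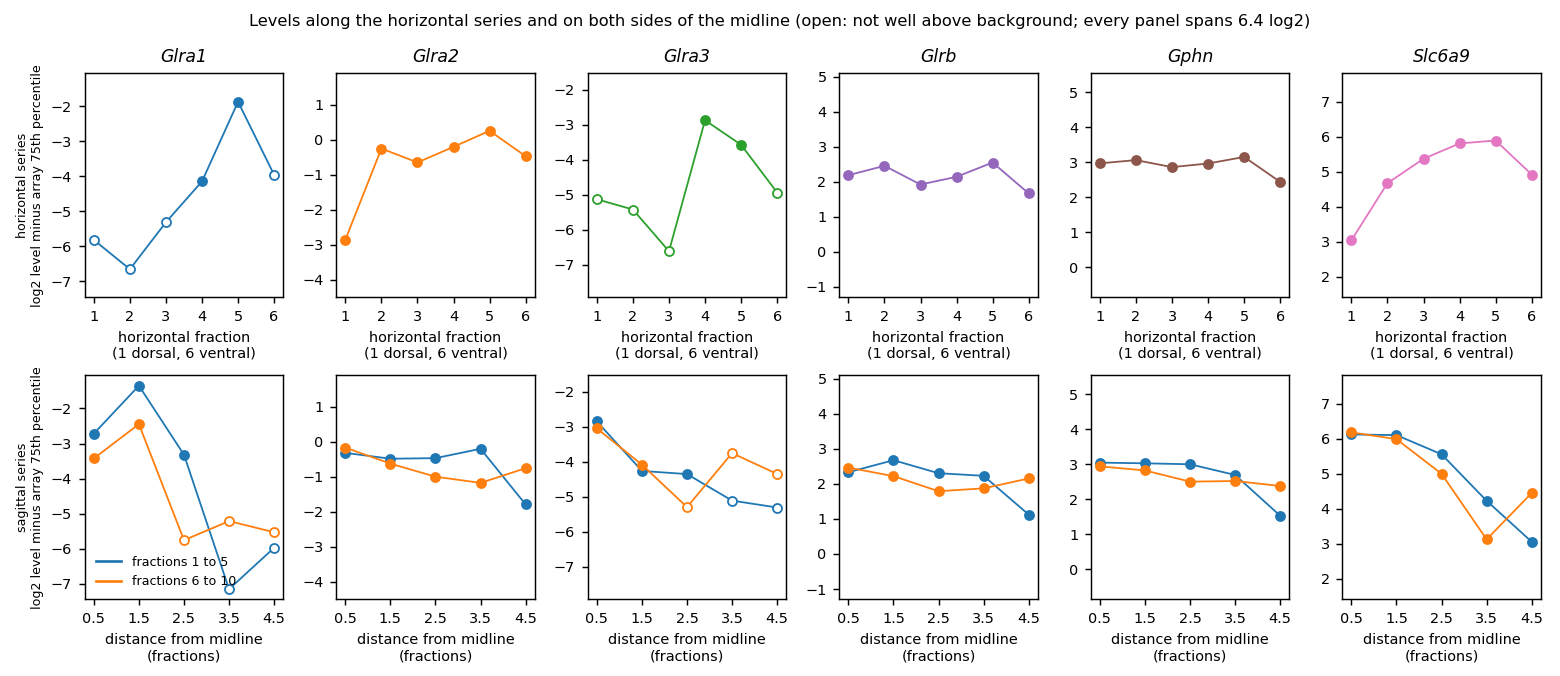
Log2 level of the 6 tested members in the 6 horizontal fractions (top) and in the 10 sagittal fractions (bottom), where the horizontal axis is the distance in fractions from a midline taken between fractions 5 and 6 and blue and orange are the 2 sides; open points were not well above background. Slc6a9 drops from 6.12 and 6.18 beside the midline to 3.06 and 4.45 at the edges, and the plotted Glra1 probe is highest 1.5 fractions from the midline on both sides.

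From dorsal to ventral, all 6 tested members had their highest level in fraction 4 or 5, as did 25.5% of all probes tested. Glra1 was well above background in horizontal fractions 4 (-4.14) and 5 (-1.87) alone, and fraction 5 was at least 6.81-fold above fraction 2. The second Glra1 probe was also well above background in fraction 6, at -2.79. Slc6a9 was 3.04, 4.67, 5.37, 5.81, 5.89 and 4.92 in fractions 1 to 6. It was the 1 member of 6 whose position trend passed in this series (adjusted p = 0.0199, limma), where 15.8% of all probes did, and this was not so with 1 spline degree of freedom fewer (adjusted p = 0.495). Glra2 was -2.86 in fraction 1 and between -0.65 and 0.26 in fractions 2 to 6. Only the most dorsal fraction stood low, 8.65-fold below fraction 5, and the trend had an adjusted p of 0.0947. It passed with array median scaling (adjusted p = 0.016) and with normexp (adjusted p = 0.0453). Glra3 was well above background in fractions 4 (-2.87) and 5 (-3.57). Glrb lay between 1.67 and 2.55 and Gphn between 2.44 and 3.15, both lowest in fraction 6. Their highest values stood out little: Glrb was 2.55 in fraction 5 and 2.46 in fraction 2, and the trends of Glrb (adjusted p = 0.731) and Gphn (adjusted p = 0.461) did not pass. The Gphn trend passed with array median scaling alone (adjusted p = 0.0331), and that of Glrb under no setting.

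Across the sagittal series both sides of 1 brain were cut, and the midline was taken to lie between fractions 5 and 6, which makes 5 pairs of fractions equally far from it. The markers do not settle its place. The mean hindbrain level was -1.97 to -1.48 in fractions 4 to 7 and lower elsewhere, and the mean hypothalamus level was 2.06 to 3.06 in fractions 4 to 7 and at most 1.05 elsewhere, both centred between fractions 5 and 6. The mean olfactory bulb level was instead 1.52 to 1.95 in fractions 5 to 8 and -0.36 in fraction 4, centred between fractions 6 and 7. With the midline placed there, no probe of 32364 passed (limma, 7167 at an unadjusted p under 0.05), so every call in the sagittal midline gradient below depends on this choice. Glra1, Slc6a9 and Gphn were higher towards the midline, 3 of 6 members, where 7.72% of all probes passed as higher and 13.1% as lower. These shares depended on the scaling: 2498 probes passed as higher and 4234 as lower here, 2754 and 2253 did with quantile normalization, and 1200 and 213 did with array median scaling, which moved the median midline gradient of all probes from -0.037 to 0.13 log2 per fraction. Slc6a9 was 6.12 and 6.18 in fractions 5 and 6, 6.10 and 5.99 in fractions 4 and 7, 5.56 and 5.00 in fractions 3 and 8, 4.23 and 3.13 in fractions 2 and 9, and 3.06 and 4.45 in fractions 1 and 10. Levels fell away from the midline up to fractions 1 and 9, fraction 10 lay 1.32 log2 above fraction 9, and the SD within pairs was 0.59. Its midline gradient was 0.72 log2 per fraction (SE 0.13, limma adjusted p = 0.0101), and it passed under 9 of 10 alternatives, all but the midline between fractions 6 and 7 (0.51, adjusted p = 0.149). Of the 5 myelin markers 3 were also higher towards the midline, and the 5 values ran from 0.43 to 0.71. Of the 6 astrocyte markers 1 was, Aqp4 at 0.39 (adjusted p = 0.0256). Their part in the Slc6a9 result was not tested.

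Glra1 was well above background in sagittal fractions 3 to 7, at -3.32, -1.35, -2.72, -3.43 and -2.45. The highest values on both sides were in fractions 4 and 7, not in the 2 fractions beside the midline. The second probe was instead highest beside the midline on both sides, at -1.85 in fraction 5 against -1.88 in fraction 4, and at -2.22 in fraction 6 against -2.51 in fraction 7. The midline gradient was 0.97 (SE 0.25, limma adjusted p = 0.0251), and the SD within pairs was 1.08. The 5 outer fractions carried no measured value, and with dim values raised to the array floor the gradient was 0.32 (adjusted p = 0.181). With the midline between fractions 6 and 7 it was 0.67 (adjusted p = 0.207).

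Gphn was 3.05 and 2.94 beside the midline and 1.53 and 2.38 at the edges, with a gradient of 0.24 (SE 0.072, limma adjusted p = 0.0405). Sagittal fraction 1, the array with the lowest signal, carried much of it: without that fraction the gradient was 0.15 (adjusted p = 0.123). The call was lost in 6 of 10 alternatives. Glra3 (0.40, adjusted p = 0.0546), Glra2 (0.22, adjusted p = 0.0987) and Glrb (0.19, adjusted p = 0.101) did not pass. Without sagittal fraction 1 Glra2 was at 0.13 and Glrb at 0.10, and Glrb passed with normexp (0.23). The Glra3 value passed in 3 of 10 alternatives, with array median scaling (0.57), with quantile normalization (0.60) and without sagittal fraction 9 (0.45), and turned to -0.087 with normexp. Glra3 was highest in fractions 5 (-2.85) and 6 (-3.05), which agree within 0.20 log2. The spline test passed for Slc6a9 (adjusted p = 0.0251) and Gphn (adjusted p = 0.0352), 2 of 6 members against 14.7% of all probes. Both calls were lost with the slide as a block (adjusted p = 0.0568 and 0.0739) or with array median scaling (adjusted p = 0.0744 and 0.146). That of Gphn was also lost with quantile normalization (adjusted p = 0.0683) and with 1 spline degree of freedom fewer (adjusted p = 0.0802).

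Likeness of profiles is given as a description, since the fractions of a brain share tissue and arrays. Glrb and Gphn were the most alike of the 21 pairs of measured members, with a Pearson correlation of 0.83 over the 28 fractions. Of 15545 other symbols, 113 correlated with Glrb and 163 with Gphn at more than 0.85. The correlation of Glrb and Gphn was 0.70 in the coronal, 0.93 in the horizontal and 0.93 in the sagittal series. Glra1 and Slc6a9 followed at 0.74, and in the coronal series they were the more alike pair, at 0.76. Glrb had a correlation of 0.50 with Glra1, 0.52 with Glra2 and 0.28 with Glra3.

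For each member, the symbols with the highest correlation over the 28 fractions were taken from 15545 symbols, 2 for Glra1 and 3 for each of the others. Glra1 was most like Nkx2-9 (0.92), which encodes a homeodomain protein, and Lingo4 (0.92), over 28 levels of which 15 were not well above background. Slc6a9 was most like Patj (0.97), Kcnh2 (0.96) and Kcnj10 (0.95), the last being the gene of an inward rectifier potassium channel. Glrb was most like Usp45 (0.94), Pcdh9 (0.93) and Senp5 (0.92). Gphn was most like Tmem106b (0.94), Ap5m1 (0.94) and Rps6kb1 (0.94). Glra2 was most like Mgat4c (0.82), Mc3r (0.81) and Rapgef6 (0.80), and Glra3 like Gpr149 (0.82), Fndc9 (0.73) and Col25a1 (0.73), with 16 of 28 Glra3 levels not well above background and Gpr149 well above it on 8 arrays. The highest values for Glra4 were 0.64 (Ddias), 0.62 (Ceacam2) and 0.61 (Ggt5), over levels that were mostly not well above background. A correlation over 0.85 was found with 276 symbols for Slc6a9 and 30 for Glra1, and with 0 for Glra2, Glra3 and Glra4.

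Other genes of the pathway were described with the same coronal contrast. Of 13 genes that supply or clear glycine, 1 was higher caudally, where 6.11% of all probes were. This was Slc7a10, a transporter of glycine and small neutral amino acids in astrocytes, at 1.03 log2 (SE 0.17, limma adjusted p = 0.00273). The remaining 12 did not pass, among them Slc32a1, which loads glycine and GABA into vesicles, at 0.15 (adjusted p = 0.767). The median of the 13 was 0.15, against -0.0065 over all probes. In the gradient 1 of 13 was higher (Slc7a10, 0.14) and 1 lower (Gldc of the glycine cleavage system, -0.15, adjusted p = 0.0356). Of all probes 6.73% passed as higher and 5.83% as lower, so 1 of 13 is near the share in each direction.

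Of 10 partners of the inhibitory postsynaptic scaffold, 9 were tested, without Insyn1, and 3 were lower caudally, where 5.34% of all probes were. These were Insyn2a at -1.28 (adjusted p = 0.0404), Slitrk3, a synaptic adhesion protein, at -0.75 (adjusted p = 0.0317), and Dynll1, a dynein light chain that binds gephyrin, at -0.72 (adjusted p = 0.0174). With the slide as a block Insyn2a was at -0.74, Slitrk3 at -0.88 and Dynll1 at -0.67, and none passed. Over 13 settings Insyn2a and Slitrk3 each passed in 7 and Dynll1 in 9. These settings include the mean of a gene's probes, which was taken for members only and repeats the main fit for these 3 genes. The median of the 9 was -0.72, against -0.0065 over all probes. Of the 4 neuron markers 2 were also lower in this contrast, Map2 at -0.72 (adjusted p = 0.0138) and Syt1 at -1.13 (adjusted p = 0.0203), while Snap25 was at 0.43 (adjusted p = 0.411) and Rbfox3 at 0.36 (adjusted p = 0.235). Log2 of the summed level of the 4 was 8.05 to 8.33 in fractions 1 to 4 and 7.76 to 8.66 in fractions 5 to 12, and their part in the results of the scaffold partners and of Gad2 was not tested. The same list held 2 chloride transporter genes, which are not scaffold partners and with which its median was -0.15. They were at 0.22 for Slc12a5 (adjusted p = 0.511) and 0.84 for Slc12a2 (adjusted p = 0.105). In the gradient 3 of the 9 partners, Insyn2a (-0.20), Mdga1 (-0.21) and Dynll1 (-0.10), were lower, where 5.83% of all probes were, and none was higher, while the chloride transporter gene Slc12a2 was higher (0.16, adjusted p = 0.00606).

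GABA is the other fast inhibitory transmitter, and Gad1 and Gad2 encode the enzymes that make it in GABA neurons. Gad2 was lower caudally, at -0.84 (adjusted p = 0.0399), and Gad1 was at -0.28 (adjusted p = 0.569). Slc6a11, a GABA transporter found mainly in astrocytes, was at 0.18 (adjusted p = 0.844). Towards the midline taken between fractions 5 and 6, Gad1 (0.33), Gad2 (0.40) and Slc6a11 (0.70 log2 per fraction) were higher, where 7.72% of all probes were. Of 5 transcription factors of inhibitory lineages in hindbrain and spinal cord, Pax2 and En1 were not tested. All 3 tested were higher caudally, where 6.11% of all probes were. Lhx5 was at 4.08 (adjusted p = 0.0037), Lhx1 at 3.24 (adjusted p = 0.000505) and Lbx1 at 1.77 (adjusted p = 0.0058). The mean of Lbx1 in fractions 5 to 12 was -5.72, below the array floors there (-4.78 to -3.38), so 1.77 is not an exact difference. That of Lhx1 was -4.00, inside the range of these floors. The same 13 settings, with that repeat of the main fit, were used for Lhx5, Lhx1 and Lbx1. The contrast was 2.81 to 4.11 for Lhx5 (passed in 11) and 1.76 to 3.49 for Lhx1 (in 12). It was 0.23 to 2.04 for Lbx1 (in 9). Lhx1 and Lhx5 are also known from the cerebellum. Of the 8 pathway genes outside the set that passed the contrast, Lhx1 was the only one that kept its call with the slide as a block (2.79, adjusted p = 0.0291). Slc7a10 (0.91), Lhx5 (3.59), Lbx1 (1.08), Gad2 (-0.54) and the 3 scaffold partners given above did not pass there. Gad2 passed in 7 of 13 settings, the repeat of the main fit included.

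**Figure D4:**
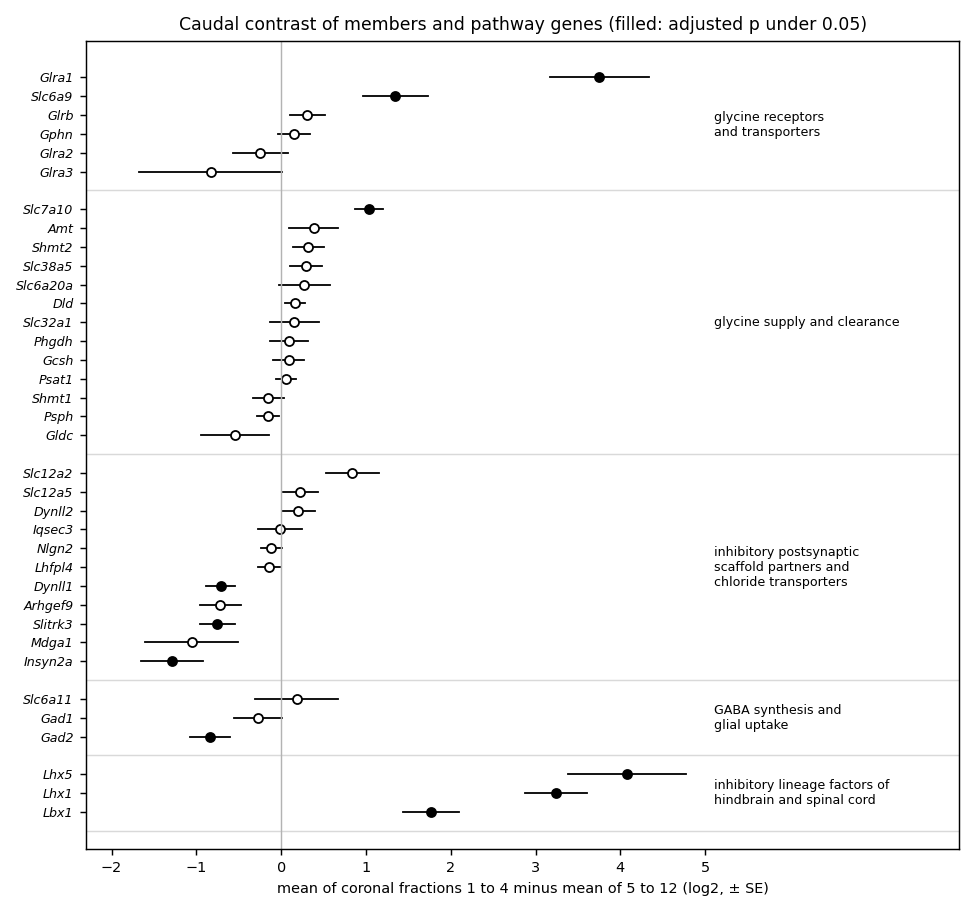
Mean of coronal fractions 1 to 4 minus mean of fractions 5 to 12 (log2, horizontal axis, with SE) of the tested members and pathway genes, grouped by list; filled points have an adjusted p under 0.05. The Glra1 point at 3.75 rests on 6 of 8 values not well above background in fractions 5 to 12 and is at 2.42 with these raised to the array floor and 1.49 with normexp, and 12 of the 13 genes that supply or clear glycine did not pass.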

How the data were processed

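Each fraction's total RNA was amplified with Cy3 label for 1-colour Agilent arrays. The deposited intensity values came, per the file headers, from Agilent Feature Extraction 10.5.1.1, which subtracts background from each spot, with probe positions of build mm9. The authors also deposited log2 values, which equal those used here apart from an offset of 0.0011 to 0.0076 per array (most deviations from it within 1.1e-06, the largest 0.49).

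Here, outlier spots were left out, spots of a probe averaged and log2 values set relative to the array's 75th percentile. A probe was tested if it was well above background (at least 0.5 of its spots flagged so) in at least 1 fraction of each series. That held for 32426 of 55681 probes, and 62 with a missing value were dropped. Names came from a RefSeq table of GRCm38.p6: 27235 probes had 1 symbol and 28446 had none here. Linear, contrast and natural cubic spline fits used limma 3.58.1 in R 4.3.3, with Benjamini-Hochberg adjustment over all tested probes and a threshold of 0.05. The fits were also run on simulated data with independent noise and planted changes. Neighbouring real fractions are not independent, so that run does not bear on the p-values here. Spots were not molecules counted, so the number of arrays, 1 per position, limits the precision. The members, gene lists, tests and alternatives were chosen with earlier results of these data known. The text names the members, up to 4 genes of each list with the largest contrast past the threshold and any gene needed to account for a small count, and the 3 symbols most like each member, apart from a list gene and a most alike symbol that are not reported here. Alternatives were another scaling (array median, quantile), normexp background correction at offset 50 (run on median spot signals, in place of the mean signals planned), no filter on dim probes, the authors' log2 values, the gene's other probe, the slide as a block, fractions left out, other borders of the contrast, another midline and 1 spline degree of freedom fewer.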

Additional observations from a re-analysis of the deposited data

Results flagged for a closer look

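A value far from the rest of its series was found in 2 of 8 sets of a member that was well above background in every fraction of the horizontal or sagittal series, by the gap to the nearest value as a share of the whole range (Dixon's test). Chance would flag about 1 in 20 sets, or 0.4 of 8, if fractions were replicates and the sets independent. Fractions are positions, and the sets of a series share their arrays, so no excess is read from 2 of 8. Glra2 in horizontal fraction 1, at -2.86, had a gap share of 0.709, with the nearest value at -0.65. Gphn in sagittal fraction 1, at 1.53 on the array with the lowest signal, had a share of 0.560, with the nearest value at 2.38. All 4 members that were well above background in every sagittal fraction had their lowest level there, and the gap shares of the others were 0.430 for Glrb, 0.380 for Glra2 and 0.022 for Slc6a9, under the critical value of 0.466.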

How the results depend on the processing

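The gradient of Glra1 passed under all 12 alternatives, at 0.19 (normexp) to 0.69 log2 per fraction. Its contrast lost its call under a slide block and in fractions 3 to 10 alone (3.05 in both, as they compare the same fractions). The Slc6a9 gradient passed with the slide as a block (0.34), in fractions 3 to 10 (0.35) and without coronal fraction 12 (0.23). Its contrast did not pass with array median scaling (1.36), without a filter on dim probes (1.35), with the slide as a block or in fractions 3 to 10 (1.41 in both), without coronal fraction 1 (1.18) or with the border after fraction 3 (1.33) or 5 (1.24). The Glrb gradient passed without coronal fraction 1 (0.090). Values that never passed changed sign for the Glra2 gradient (0.012 with the slide as a block, 0.015 in fractions 3 to 10, 0.042 without coronal fraction 1), the Glra2 contrast, which was -5.7e-05 without coronal fraction 1 (0.074 with the slide as a block and in fractions 3 to 10) and the Glra3 gradient (0.016, quantile). Neighbours in the order of gradients were recomputed under settings chosen after seeing the data. Glra1 minus Slc6a9 included 0 with normexp (0.026). Glrb minus Gphn included 0 without coronal fraction 1 (0.048), without fraction 12 (0.018) and in fractions 3 to 10 (0.016). Slc6a9 minus Glrb excluded 0 without fraction 12 (0.17) and in fractions 3 to 10 (0.26), and Gphn minus Glra2 without fraction 12 (0.093). Gphn minus Glra2 turned to -0.00030 without fraction 1, and Glra2 minus Glra3 to -0.021 with quantile normalization. The cause was not tested.

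In the sagittal midline gradient Glra1 was lost with normexp (0.076), without a filter (0.97), with dim values raised to the array floor, a setting chosen after seeing the data (0.32), and without sagittal fraction 1 (1.00). Glra3 passed with array median scaling (0.57), with quantile normalization (0.60) and without sagittal fraction 9 (0.45), and turned to -0.087 with normexp. Glrb passed with normexp (0.23). Gphn was lost with array median scaling (0.41), quantile normalization (0.23), no filter (0.24), the slide as a block (0.25) and without sagittal fraction 1 (0.15). With the midline between fractions 6 and 7, chosen after seeing the data, Glra1 (0.67), Slc6a9 (0.51) and Gphn (0.18) were lost, and without sagittal fraction 1 Glra2 fell to 0.13 and Glrb to 0.10.

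Counts of probes called moved by more than 1.5 times as follows. Without a filter 55551 probes were tested in place of 32364. The coronal gradient called 4063, and 1886 with the slide as a block. The contrast called 3706, and 2227 without a filter, 797 with the slide as a block, 92 in fractions 3 to 10, 2078 without coronal fraction 1 and 1435 with the border after fraction 5. The midline gradient called 6732, and 1413 with array median scaling, 14077 with normexp, 3405 without a filter, 1962 without sagittal fraction 1, 11212 without sagittal fraction 9 and 0 with the midline between fractions 6 and 7 (limma, 7167 at an unadjusted p under 0.05). The coronal trend called 10910, and 17330 without a filter (31.2% against 33.7% of those tested) and 241 with the slide as a block. The horizontal trend called 5115, and 19347 with array median scaling, 9066 with normexp and 1 with 1 spline degree of freedom fewer. The sagittal trend called 4767, and 337 with array median scaling, 2627 with quantile normalization, 14295 with normexp, 19184 without a filter, 8270 with dim values raised to the floor and 2520 with the slide as a block.

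No paired analysis was possible because the numbers that the planes share are positions along different axes, not replicates. Signal over background limits Glra1 to 13 (14 with its second probe), Glra3 to 12 and Glra4 to 2 of 28 arrays, and no setting adds a replicate of a position.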
